A study of Mus musculus with 6 samples.

Results

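The ribosomal protein genes of thymic regulatory T cells were compared between NOD and C57BL/6 (B6) mice. Genes were taken by symbol (Rpl or Rps followed by a number, with a paralog letter where there is one, and Rplp0 to Rplp2). This gave 86 of the 32801 gene symbols, 52 named for the large and 34 for the small subunit. The table holds 3 NOD libraries and 3 B6 libraries. NOD mice develop autoimmune diabetes without treatment, and B6 mice gave the mm10 reference sequence. All animals were 3 weeks old, and all cells were sorted as GFP-negative CD4+CD8- Thy1.1+ cells of the thymus. What GFP and Thy1.1 report is not stated in the labels, nor whether animals were pooled. Where nothing says that libraries came from separate animals, p-values measure the spread between these libraries, which may be technical. The deposited columns carry library numbers that do not match the labelled replicate numbers, so these numbers (2, 10 and 18 for NOD, 4, 12 and 20 for B6) name the libraries here.

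Not every gene with such a symbol is coding. In the GENCODE annotation 81 are protein-coding and 5 are pseudogenes (Rpl6l, Rpl32l, Rps3a2, Rps3a3 and Rps4l). Among the 81, 76 are the standard ribosomal proteins, 46 of the large and 30 of the small subunit, and 5 are paralogs (Rpl3l, Rpl7l1, Rpl22l1, Rpl39l and Rps27l). A filter on low values (10 normalized counts or more, in 3 or more libraries) kept 85 genes and removed Rpl3l, the muscle paralog of Rpl3, which had 16, 18 and 6 normalized counts in NOD libraries and 8 in each B6 library.

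A ribosome is built from ribosomal RNA and a set of proteins that are needed in nearly equal numbers. Their genes are therefore usually transcribed at high and similar rates, and their mRNAs carry a terminal oligopyrimidine tract at the 5′ end, through which mTOR signalling sets their translation. Loss of a single copy of some of them, such as Rps19 or Rpl35a, causes Diamond-Blackfan anaemia in humans, and mouse Rpl22 is needed for αβ T cell development. Mammalian genomes hold many processed pseudogenes, intronless copies of these mRNAs that were inserted elsewhere.

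Between strains, 5 large-subunit genes were lower in NOD cells: Rpl29, Rpl35a, Rpl34, Rpl3 and Rpl21. The paralog Rpl22l1 was higher, and the other 79 genes tested, every small-subunit gene among them, did not pass the test. Some near-identical copies of Rpl29, Rpl3 and Rpl34 were at the same time higher in NOD cells by large factors. Those copies differ from their parent genes by a few bases, as stretches of 90 bases of the coding sequence show. The sequences are from the mm10 (GRCm38) genome with GENCODE annotation, on the strand of the gene, and capitals mark each base at which the member and its copy differ. Rpl29 lies at chr9:106429454-106431568 on the plus strand and its copy Gm8210 at chr1:43189156-43189638 on the plus strand. Over 483 aligned coding bases they differ at 3, an identity of 99.4%, and coding bases 27 to 116 of Rpl29 hold 1 of these differences.

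Rpl29: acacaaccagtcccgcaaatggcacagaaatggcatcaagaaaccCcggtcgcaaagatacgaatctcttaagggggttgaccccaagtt
Gm8210: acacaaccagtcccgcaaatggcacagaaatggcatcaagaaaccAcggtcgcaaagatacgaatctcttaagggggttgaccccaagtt

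Rpl3 lies at chr15:80077791-80091868 on the minus strand and Rpl3-ps1 at chrX:13202571-13203780 on the plus strand. They differ at 2 of 1209 aligned bases (identity 99.8%), of which 1 is in coding bases 12 to 101.

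Rpl3: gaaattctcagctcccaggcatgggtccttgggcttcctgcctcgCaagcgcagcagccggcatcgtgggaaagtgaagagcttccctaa
Rpl3-ps1: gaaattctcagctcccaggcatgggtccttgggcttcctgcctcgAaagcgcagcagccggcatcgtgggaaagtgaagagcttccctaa

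Rpl34 lies at chr3:130726831-130730398 on the minus strand and Rpl34-ps1 at chr6:71124610-71124963 on the plus strand. They differ at 2 of 354 aligned bases (identity 99.4%), of which 1 is in coding bases 87 to 176.

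Rpl34: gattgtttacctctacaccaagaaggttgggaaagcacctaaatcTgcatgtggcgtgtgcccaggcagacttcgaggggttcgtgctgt
Rpl34-ps1: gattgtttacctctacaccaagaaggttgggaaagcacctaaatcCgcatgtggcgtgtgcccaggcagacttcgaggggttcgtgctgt

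Rps24, whose own level did not pass the test, lies at chr14:24487125-24496959 on the plus strand and Rps24-ps3 at chrX:79195047-79195448 on the plus strand. They differ at 4 of 402 aligned bases (identity 99.0%), and coding bases 195 to 284 hold 2 of these.

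Rps24: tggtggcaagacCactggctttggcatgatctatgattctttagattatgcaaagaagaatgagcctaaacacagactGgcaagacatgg
Rps24-ps3: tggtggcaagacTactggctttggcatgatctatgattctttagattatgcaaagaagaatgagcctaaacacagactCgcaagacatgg

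Such copies are common for this family. For a median of 90.8% of the 50-base stretches in its coding sequence, a standard member had the identical stretch in another annotated gene. All stretches of 27 of the 76 were found elsewhere, and only 3 of the 76 shared under 10%. Rpl21 had 43 other genes that each held at least 20% of its stretches. How the authors' counting treated reads that match several genes is not given in the sources used here, so levels of a member and of its copies may have been split.

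All libraries had similar totals, from 16963609 to 17574418 normalized counts in NOD and from 16097369 to 17625903 in B6. A normalized count is a gene's reads over the size factor of the library, rounded by the authors, so raw depth is not shown. Markers that define the sorted cells were high in both strains: Foxp3, the lineage factor of regulatory T cells, averaged 2018 ± 305 normalized counts over NOD libraries and 2061 ± 344 over B6 libraries (SD, 3 per strain). The 6 regulatory T cell markers summed to between 102171 and 113699 in NOD libraries and between 97182 and 110229 in B6 libraries. The 5 dendritic cell markers summed to between 409 and 537 in NOD and between 907 and 1102 in B6, and 2 of them (Cd74 and H2-Aa) were called lower. Of the double-positive thymocyte markers, which summed to between 238 and 320 in NOD and between 250 and 304 in B6, Cd8a was called higher and Rag1 lower. Cd8a had 124, 35 and 100 normalized counts in NOD, against 10, 17 and 18 in B6 (log2 fold change 2.31, limma adjusted p = 0.00745). Rag1 had 49, 55 and 67 in NOD, against 155, 100 and 111 in B6 (log2 fold change -1.07, limma adjusted p = 0.0169). Of the regulatory T cell markers, the T cell receptor subunit gene Cd3e was called higher (log2 fold change 0.77, limma adjusted p = 0.00222). None of these markers was at 0 in every library, and the part of such cells in the differences below was not tested. In bulk samples, fewer cells of a type and less RNA per cell cannot be told apart.

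Ribosomal protein genes held 5.48%, 6.05% and 5.13% of all normalized counts in NOD libraries 2, 10 and 18, and 4.50%, 5.62% and 5.98% in B6 libraries 4, 12 and 20. The strain means were 5.55% ± 0.46 for NOD and 5.37% ± 0.77 for B6 (SD over 3 libraries), a difference within the spread between libraries. Mean levels of the 76 standard members ran from 88.7 to 28508 normalized counts, with a median of 12080.

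Levels were compared between genes per kilobase of annotated transcript. On that scale Rps27 was highest, at 60014 normalized counts per kb in NOD and 48875 in B6. Rps14, of the small-subunit platform, followed at 45832 in NOD and 34079 in B6, and Rps29 at 39142 in NOD and 31930 in B6. The median over the 6 libraries was 13880 per kb for standard large-subunit genes and 18937 for small-subunit genes. Rps20 is annotated here only with a much longer coding transcript, so its value per kb is not comparable.

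At the low end stood 5 standard members with means under 1000 normalized counts: Rpl24, Rps10, Rpl13a, Rpl35 and Rpl23a. Their levels per kb were 131, 248, 572, 589 and 1782 in NOD and 130, 282, 451, 511 and 1640 in B6. Each overlaps another annotated gene at its own locus that holds part of its coding sequence. Gm45713 held 97.5% of the 50-base stretches of Rpl13a, RPS10-NUDT3 90.6% of those of Rps10, Gm28037 81.2% of those of Rpl24, Tlcd1 36.0% of those of Rpl23a and Wdr38 11.1% of those of Rpl35. The deposited gene symbols do not include Gm45713, RPS10-NUDT3 or Gm28037, so whether the authors' annotation held them is not known. Tlcd1 and Wdr38 lie on the strand opposite to Rpl23a and Rpl35. The levels of the 5 genes are uncertain, and the part of the overlap in them was not tested. None of the 5 differed between strains beyond the test's threshold.

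By normalized count, the 5 largest large-subunit genes were Rplp0, Rpl4, Rpl7, Rpl3 and Rpl17. Rplp0, the base of the stalk that binds elongation factors, averaged 26947 ± 4540 normalized counts in NOD and 30070 ± 2227 in B6. Rpl4 averaged 28395 ± 584 in NOD and 27214 ± 3046 in B6. Rpl7 and Rpl17 averaged 26664 ± 1399 and 21662 ± 845 in NOD, against 22875 ± 4223 and 17904 ± 3678 in B6. Of the small subunit, Rps4x averaged 29752 ± 292 in NOD and 23809 ± 5670 in B6, and Rps3, near the mRNA entry site, 26750 ± 1820 in NOD and 24083 ± 4295 in B6. Rps14 averaged 27362 ± 4383 in NOD and 20345 ± 4625 in B6. Rps3a1 had 22764 ± 487 in NOD and 20667 ± 4121 in B6, and Rps24 20146 ± 1735 in NOD and 22403 ± 4997 in B6 (all SD over 3 libraries). Of these 10 genes, Rpl3 alone passed the test.

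The strain comparison used limma with a trend on log2(value + 1), with Benjamini-Hochberg adjustment over all 16442 genes tested. At an adjusted p below 0.05, 5 of the 85 members were called lower in NOD, against a background of 5.3% of all genes, and 1 was called higher, against a background of 4.59%. Both shares of members are near or below those of all genes. Of the 51 large-subunit symbols tested, 5 were called lower (9.80%) and 1 higher (1.96%). In limma, 13 of these 51 (25.5%) had an unadjusted p below 0.05. The median log2 fold change was 0.14 over the members, 0.14 over the large-subunit and 0.15 over the small-subunit symbols, and 0.01 over all genes. It was above 0 for 64 members and below 0 for 21. Of the 34 small-subunit symbols, 0 were called by limma, and 7 had an unadjusted p below 0.05, which is 20.6% of them, against 20.3% of all genes. In the authors' deposited table, 5 of 86 members were lower at an adjusted p below 0.05, where 5.06% of all genes with an adjusted p were. In it, none of the members was higher (0 of 86), where 4.68% of all genes were.

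**Figure D1:**
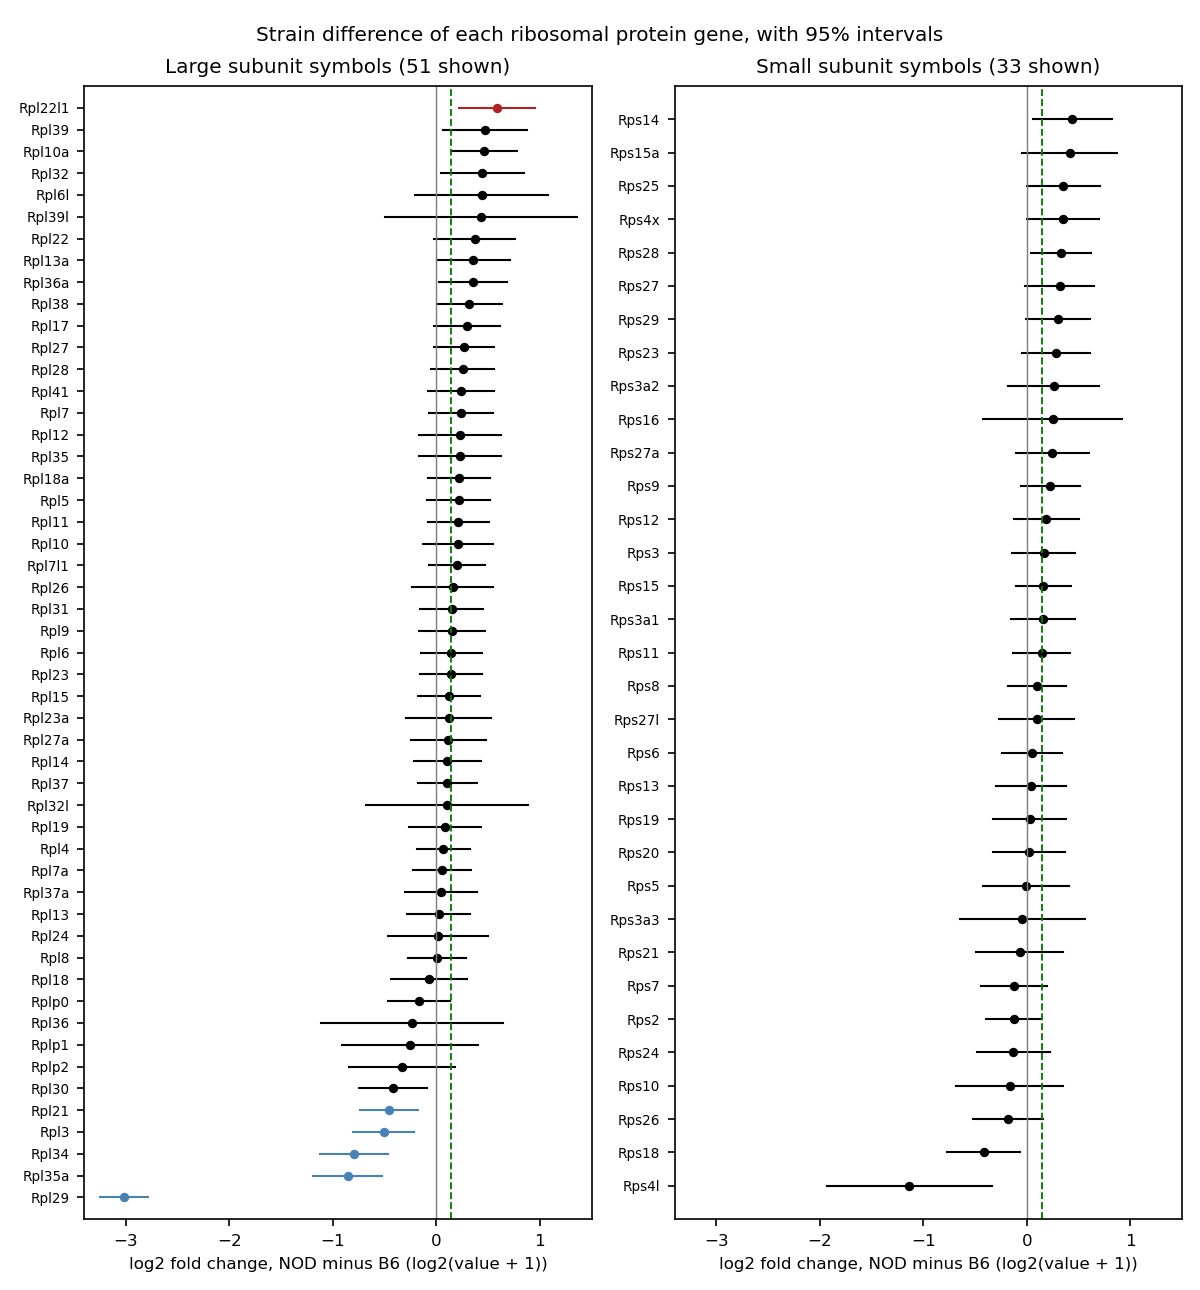
Log2 fold change (NOD minus B6, on the log2(value + 1) scale) of 84 tested genes with 95% intervals, large-subunit symbols on the left and small-subunit symbols on the right; blue marks genes called lower in NOD and red the gene called higher, and the dashed line is the median of the members, 0.14. Rpl29 lies at -3.02, far from the others, and the intervals of most genes include 0.

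Rpl29, a protein of the large-subunit surface that also binds heparan sulfate, had 869, 765 and 731 normalized counts in NOD libraries, against 6066, 6476 and 6616 in B6 libraries. The strains were widely apart, and replicates of each were close to each other. Its log2 fold change was -3.02 (SE 0.11, limma adjusted p = 1.93e-08), and leaving out any library kept it between -3.09 and -2.97.

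Rpl35a came next, a large-subunit protein needed for processing of ribosomal RNA precursors. It had 4311, 4841 and 4315 normalized counts in NOD libraries, against 6595, 7806 and 10410 in B6 libraries. All NOD values lay below all B6 values, and B6 library 20 was the highest. The log2 fold change was -0.86 (SE 0.15, limma adjusted p = 0.00326). Rpl34, also of the large subunit, had 5278, 6562 and 5210 in NOD libraries, against 7951, 9996 and 11822 in B6 libraries. These again did not overlap, and the log2 fold change was -0.79 (SE 0.15, limma adjusted p = 0.00529).

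Rpl3 helps to form the peptidyl transferase centre. It had 17056, 17965 and 16689 normalized counts in NOD libraries, against 20664, 24446 and 29261 in B6 libraries (log2 fold change -0.51, SE 0.13, limma adjusted p = 0.0323). The NOD libraries were within a narrow range below the lowest B6 library. Rpl21 had 10802, 10660 and 10457 in NOD libraries, against 12367, 14485 and 17337 in B6 libraries (log2 fold change -0.46, SE 0.13, limma adjusted p = 0.0446). Its lowest B6 value was again that of library 4. Rpl3 lost its call without NOD library 2 or 18, or without B6 library 12 or 20. Rpl21 lost its call when any library but B6 library 4 was left out. Their adjusted p reached 0.122 and 0.146.

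Rpl22l1 is the paralog of Rpl22, and in mice Rpl22 represses it. It had 1292, 1267 and 1156 normalized counts in NOD libraries, against 639, 817 and 1068 in B6 libraries. The lowest NOD library was above the highest B6 library by less than B6 libraries differed from each other. The log2 fold change was 0.59 (SE 0.17, limma adjusted p = 0.0481), and the call was lost when any library but B6 library 20 was left out, with an adjusted p of up to 0.192. The authors' deposited table gives an adjusted p of 0.109 for it. Rpl22 itself had 4671, 5494 and 4579 in NOD libraries, against 2733, 4742 and 4195 in B6 libraries, which overlap, and was not called (log2 fold change 0.37, limma adjusted p = 0.280). The antisense gene Gm33051 overlaps Rpl22l1 and had at most 1 normalized count in any library.

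In 6 members all NOD libraries were below all B6 libraries, a pattern found in 11.9% of all genes. These were the 5 called genes and Rpl30, with 3629, 3130 and 3479 normalized counts in NOD and 3848, 4180 and 5868 in B6 (limma adjusted p = 0.122). In 3 members all NOD libraries were above all B6 libraries, against 12.1% of all genes. Rpl22l1 and Rpl10a were among them. Rpl10a had 9795, 11953 and 8673 normalized counts in NOD and 6342, 7217 and 8543 in B6 (log2 fold change 0.46, limma adjusted p = 0.0750).

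**Figure D2:**
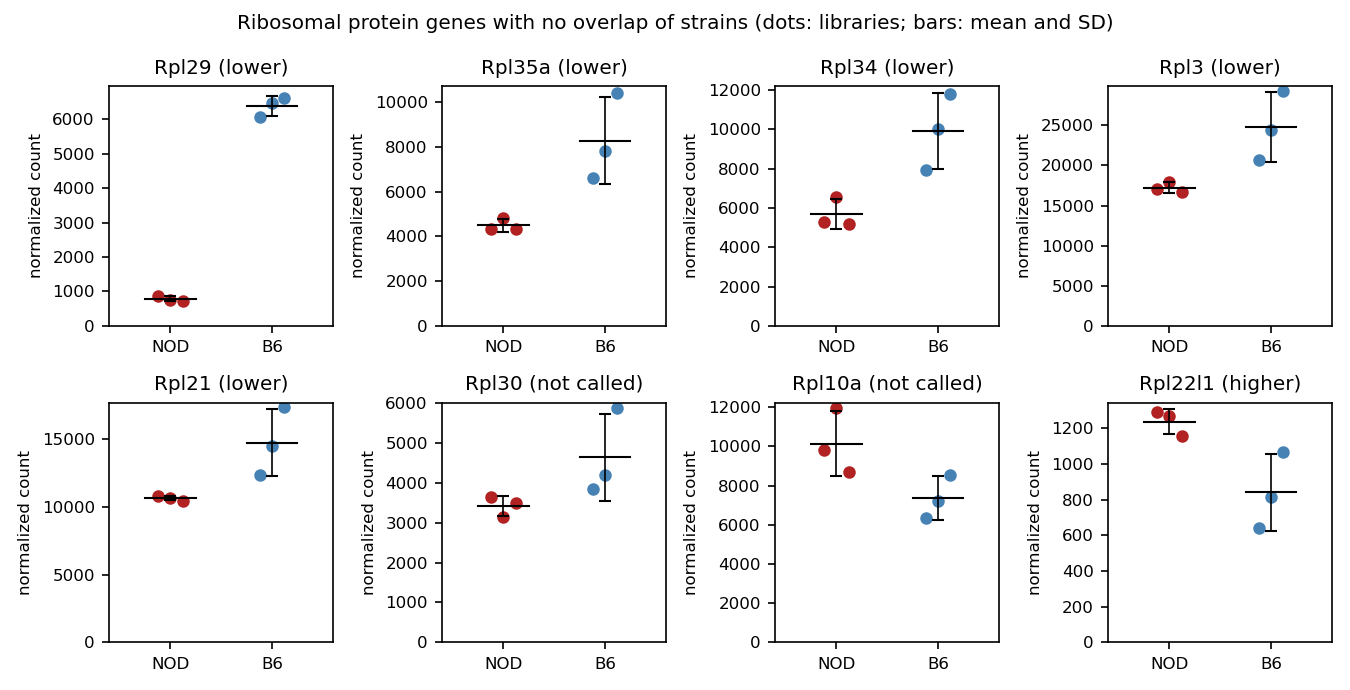
Normalized counts per library of 8 genes whose strains did not overlap, NOD left of B6; dots are libraries, and bars give the mean and SD of 3 libraries. In 6 genes the NOD dots lie below the B6 dots, with the widest gap in Rpl29, and in Rpl10a and Rpl22l1 they lie above.

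The rest of the lower end held Rps4l, Rps18, Rplp2 and Rplp1, and none passed the test. Rps4l, a pseudogene of the X-linked Rps4x, had 24, 64 and 31 normalized counts in NOD and 94, 92 and 61 in B6 (log2 fold change -1.13, limma adjusted p = 0.083). Rps18 had 12607, 17393 and 12219 in NOD and 15325, 19519 and 21249 in B6 (log2 fold change -0.42, limma adjusted p = 0.164). Among the rest of the higher end, Rpl39, at the polypeptide exit tunnel, had a log2 fold change of 0.47 (limma adjusted p = 0.173). Rpl32, Rps14 and Rps15a had log2 fold changes of 0.44, 0.44 and 0.41, with limma adjusted p of 0.196, 0.166 and 0.308. The low-level Rpl6l (0.44, adjusted p = 0.478) and Rpl39l (0.43, adjusted p = 0.667) complete the 10 highest values.

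The paralogs were expressed below the genes they are named after. Rpl22l1 stood at 2243 normalized counts per kb in NOD and 1524 in B6, and Rpl22 at 10368 in NOD and 8207 in B6. Rps27l, a target of p53, stood at 1910 per kb in NOD and 1817 in B6, and Rpl7l1 at 1151 in NOD and 1005 in B6. Rpl39l, the testis paralog, had 54.5 per kb in NOD and 40.0 in B6. Neither Rps27l (log2 fold change 0.10, limma adjusted p = 0.826) nor Rpl7l1 (0.20, adjusted p = 0.427) passed the test.

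Several copies of members called lower were themselves higher in NOD libraries, and others were lower. Rpl3-ps1 had 3139, 2547 and 2766 normalized counts in NOD libraries, against 138, 148 and 215 in B6 libraries. Rpl34-ps1 had 1696, 1667 and 1879 in NOD, against 24, 52 and 90 in B6. Gm8210, a copy of Rpl29, had 587, 525 and 596 in NOD, against 3, 6 and 3 in B6. These 3 copies were in every NOD library far above every B6 library, the opposite direction to their parent genes. Gm13841, another copy of Rpl29 with the same identity, had 95, 613 and 187 in NOD, against 38, 37 and 38 in B6, and varied strongly among NOD libraries. At low levels, copies were called in both directions. Gm10086 of Rpl34 and Gm10029 and Gm10247 of Rpl35a were higher. Lower were Gm10709 of Rpl29 (2, 3 and 4 in NOD, against 29, 26 and 32 in B6) and Gm4705 of Rpl34 (7, 3 and 7, against 53, 71 and 78). Gm15682 of Rpl21 was also lower (4, 8 and 14 in NOD, against 67, 56 and 94 in B6).

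The size of the change in a copy was compared with that in its parent in normalized counts. The mean of Rpl3 differed by -7554 (NOD minus B6), and that of Rpl3-ps1 by 2650. For Rpl34 the difference was -4240, and for Rpl34-ps1 it was 1692. For Rpl29 it was -5598, against 565 for Gm8210 and 261 for Gm13841. In normalized counts, the rise in each named copy was smaller than the fall in its parent. How reads that match both were counted is not known, and whether reads were split between them was not tested.

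Some other parents of called copies did not pass the test. Their differences are given beside those of the copies, and any relation between them was not tested. Rps24, with a difference of -2257 (limma adjusted p = 0.745), had the copy Rps24-ps3 with 2813, 3021 and 2813 normalized counts in NOD, against 43, 70 and 77 in B6, a difference of 2819. Rps7, with a difference of -1386 (limma adjusted p = 0.728), had the copy Gm6472 with 1475, 1596 and 1468 in NOD, against 69, 88 and 88 in B6, a difference of 1431. Rps19, the gene most often mutated in Diamond-Blackfan anaemia, had 12734, 16599 and 12546 in NOD and 10869, 14245 and 16130 in B6. Its copy Rps19-ps6 had 1093, 576 and 1047 in NOD, against 33, 40 and 69 in B6, so that the difference was 212 for the parent and 858 for the copy. For Rps18 the difference was -4625, against 487 for its copy Gm11361, and for Rps2 it was -1204, against 41.3 for Rps2-ps6. Of the pseudogenes that hold at least 5% of a member's stretches, 276 were tested, of which 20 were called higher (7.25%, against 4.59% of all genes) and 3 lower (1.09%, against 5.3% of all genes). The 50-base stretches were read from the reference genome, which is that of B6, and NOD sequence was not used here.

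**Figure D3:**
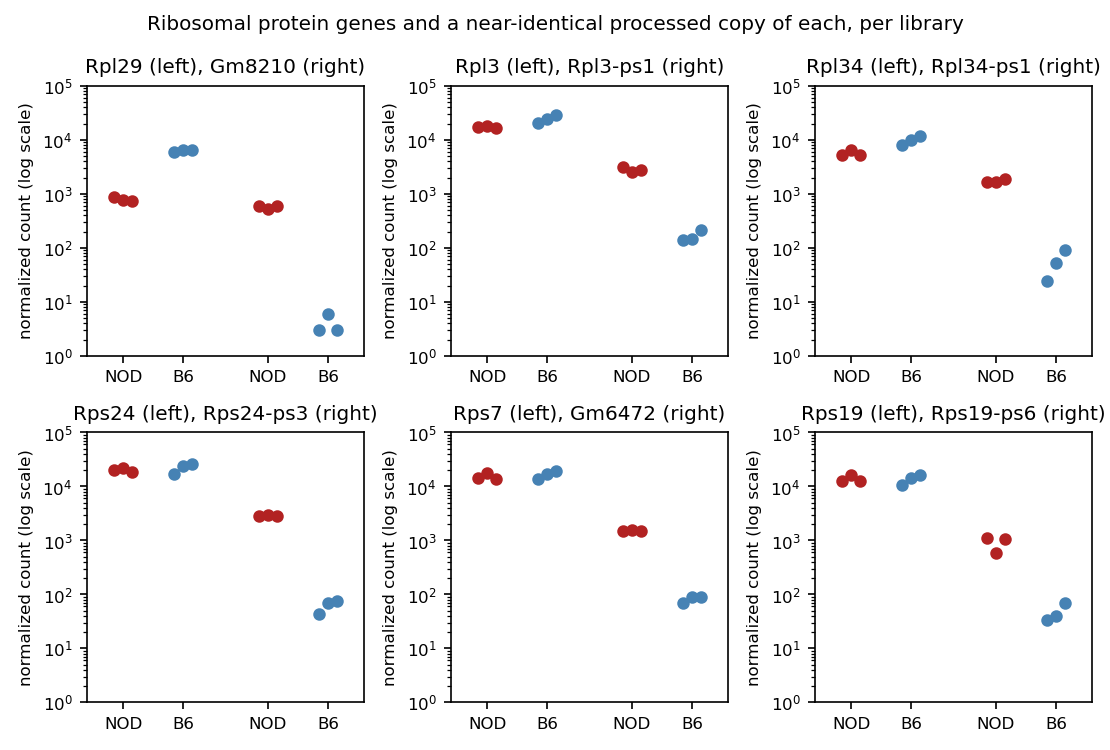
Normalized counts per library (log axis) of 6 ribosomal protein genes and, to the right within each panel, of a copy, NOD (red) left of B6 (blue). Copies are near-identical in the aligned pairs, but Gm6472 was not aligned with Rps7 and is known only to hold 81.7% of its 50-base stretches. Copies lie between 525 and 3139 in NOD libraries and between 3 and 215 in B6 libraries, and of the 6 parent genes Rpl29 shows the widest gap between strains.

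Each member was then summed with all annotated pseudogenes that hold at least 20% of its stretches, an alternative chosen after seeing the data. Rpl29 with its 18 copies had 1618, 1964 and 1574 normalized counts in NOD, against 6163, 6590 and 6727 in B6. It was still called lower, with a log2 fold change of -1.92 (limma adjusted p = 8.73e-07) in place of -3.02. Rpl3 with its copies had 20282, 20607 and 19544 in NOD and 20884, 24670 and 29598 in B6, and was no longer called (log2 fold change -0.30, limma adjusted p = 0.233). Rpl34 with its copies had 6998, 8249 and 7111 in NOD and 8044, 10141 and 12034 in B6, which overlap, and was no longer called (-0.42, adjusted p = 0.107). Rpl35a (-0.82, adjusted p = 0.00455) and Rpl21 (-0.44, adjusted p = 0.0496) kept their calls, as did Rpl22l1 (0.59, adjusted p = 0.0425). The median of the members was 0.15 after summing.

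Members also moved together between libraries of the same strain. The following values are for the 71 standard members with a mean of at least 1000 normalized counts, 42 of the large and 29 of the small subunit. B6 library 4 was the lowest of its strain for 64 of the 71, and B6 library 20 the highest for 60. NOD library 10 was the highest of its strain for 55, and NOD library 18 the lowest for 50. The median log2 level was 13.58, 13.86 and 13.51 in NOD libraries 2, 10 and 18, and 13.28, 13.53 and 13.75 in B6 libraries 4, 12 and 20. The range among B6 libraries was wider than the difference of strain means, 0.13.

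These libraries bear on the count of called genes. Without B6 library 20, 11 members were called higher, where 4.58% of all genes were. Among them were Rpl10a, Rpl22l1, Rpl28, Rpl32, Rpl36a, Rps4x, Rps15a, Rps25, Rps27 and Rps28. The median of the members was then 0.26. Without B6 library 4 it was 0.02, and 0 members were called higher. Without NOD library 10, 10 members were called lower, where 5.95% of all genes were: Rpl29, Rpl35a, Rpl34, Rpl3, Rps18, Rps26, Rps4l and the GC-rich Rplp1, Rplp2 and Rpl36. With each library centred on the median of the members, 8 members were called lower, where 5.95% of all genes were (the 5 genes above with Rpl30, Rps18 and Rps4l), and 0 higher. That centring moved the median of all genes to -0.17 and the median of the members to -0.04. The gap between the 2 medians is the same under both scalings by construction.

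**Figure D4:**
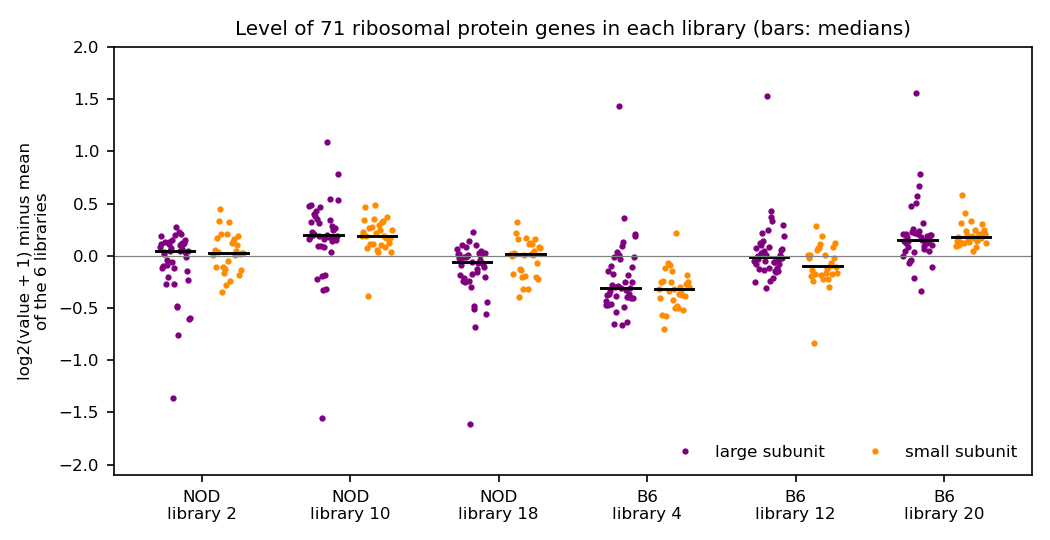
Log2(value + 1) of 71 ribosomal protein genes in each library, minus the gene's mean over the 6 libraries, with large-subunit genes (purple) left of small-subunit genes (orange) and bars at the medians. Most genes lie below 0 in B6 library 4 and above 0 in NOD library 10 and B6 library 20; the single low dots in the NOD libraries are Rpl29.

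Large- and small-subunit genes moved together in these libraries. The mean log2 level of the 42 large-subunit genes minus that of the 29 small-subunit genes was -0.44, -0.35 and -0.46 in NOD libraries 2, 10 and 18, and -0.23, -0.21 and -0.34 in B6 libraries 4, 12 and 20. The strains did not overlap on this measure. Without Rpl29 the values were -0.36, -0.25 and -0.37 in NOD and -0.21, -0.19 and -0.32 in B6, which overlap. Without all 5 genes called lower they were -0.32, -0.19 and -0.34 in NOD and -0.24, -0.22 and -0.36 in B6, and overlapped as well. With medians in place of means the direction turned, with -0.23, -0.30 and -0.23 in NOD and -0.40, -0.30 and -0.44 in B6. On medians the strains did not overlap either, with NOD above B6 (lowest NOD value -0.297, highest B6 value -0.303). The strain means of the measure by means differed by -0.16 with all genes, by -0.08 without Rpl29 and by -0.01 without the 5 genes. Those of the measure by medians differed by 0.13 with all genes.

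NOD library 10 stood apart by its GC-rich genes. Rplp1, of the ribosomal stalk, had 7899, 20777 and 8207 normalized counts in NOD libraries 2, 10 and 18, and 13738, 14828 and 11157 in B6. Rplp2, its partner in the stalk, had 4560, 10004 and 5096 in NOD and 8002, 7891 and 7406 in B6. Rpl36, with the highest coding GC content among the 71 at 61.3%, had 2059, 7455 and 2182 in NOD and 4482, 4390 and 2763 in B6. In all 3 genes NOD library 10 was above every other library, and the other NOD libraries were below every B6 library.

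Each gene's shift in a library, relative to the mean of the other libraries of its strain, was set against the GC content of its coding sequence. Over the 71 genes, Spearman's rho was -0.54, 0.52 and -0.38 in NOD libraries 2, 10 and 18, and 0.64, 0.08 and -0.55 in B6 libraries 4, 12 and 20. The same was done for 3502 protein-coding genes with a mean of at least 1000 normalized counts, not otherwise matched in level to the members. With the GC content of the transcript, rho over these was -0.46, 0.58 and -0.43 in NOD, and 0.08, 0.29 and -0.28 in B6. The genes share their library and its scaling, so rho is a description only, and shifts within a strain are not independent of each other. The log2 fold change between strains had a rho of -0.27 with coding GC content over the 71 genes. After a correction of each library for transcript GC content, chosen after seeing the data, the same 5 genes were called lower. Rpl10a was then called higher (log2 fold change 0.48, limma adjusted p = 0.0296) and Rpl22l1 was not (0.52, adjusted p = 0.0694).

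**Figure D5:**
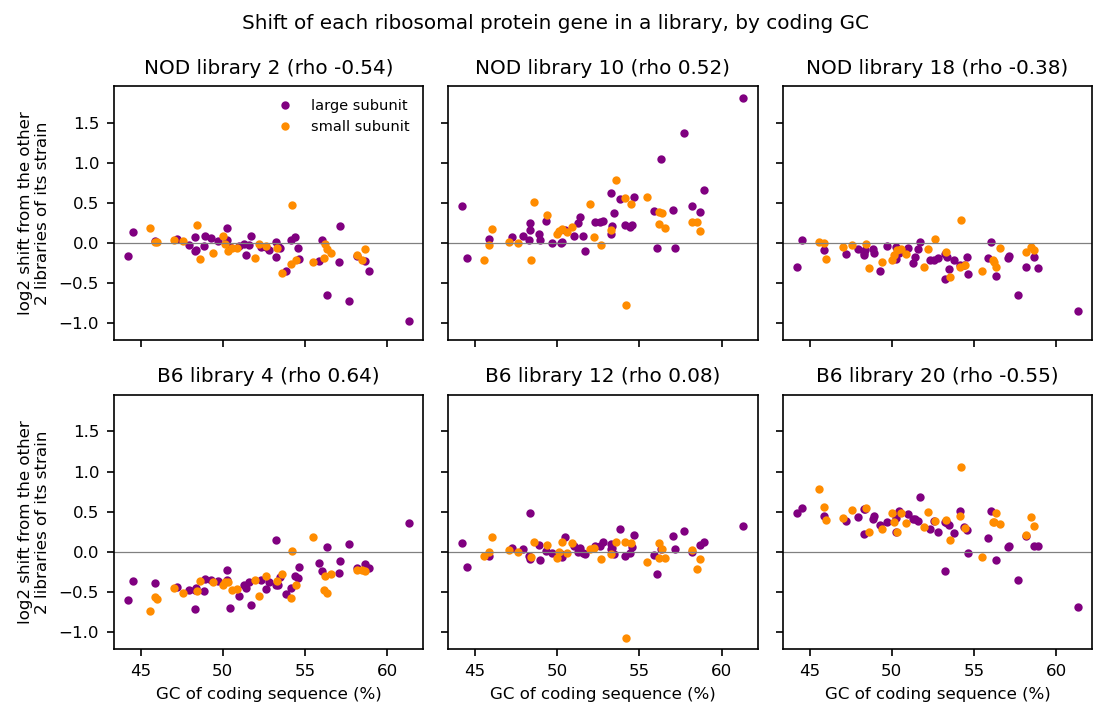
Shift of 71 ribosomal protein genes in each library (log2 difference from the mean of the other 2 libraries of its strain) against the GC content of the coding sequence in percent, with large-subunit genes in purple and small-subunit genes in orange. The cloud climbs with GC content in NOD library 10 and B6 library 4 (rho 0.52 and 0.64) and falls in NOD library 2 and B6 library 20 (rho -0.54 and -0.55); Rpl36 is the point at the far right.

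Promoters were looked at because the members moved together between libraries. RefSeq promoter sequences (GRCm38.p6) matched 56 of the 76 standard members by symbol. Windows of 30 bases around the annotated start, 15 on each side, were searched on the gene's strand for a run of at least 6 bases that are all C or T. This run was present in 32 of the 56 (57.1%), against 29.1% of all 27025 promoters. The letters CGGAAG on either strand, the core of the ETS factor motif, were present within 300 bases in 39 of the 56 (69.6%), against 17.2% of all promoters. The windows of 5 genes show the range, with capitals for the pyrimidine run. Called genes among these 5 are Rpl34 (chr3:130730384-130730413, minus strand), Rpl35a (chr16:33056438-33056467, plus strand) and Rpl22l1 (chr3:28805493-28805522, plus strand). The other called genes, Rpl29, Rpl3 and Rpl21, had no matching promoter sequence and could not be examined. Rpl28 (chr7:4792950-4792979, plus strand) and Rps15a (chr7:118116133-118116162, minus strand) were among the 11 genes called without B6 library 20.

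Rpl34: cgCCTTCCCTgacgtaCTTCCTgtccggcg
Rpl35a: gcggggcgtgcgtcccacaaggccgcgcgg
Rpl22l1: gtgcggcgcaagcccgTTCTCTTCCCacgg
Rpl28: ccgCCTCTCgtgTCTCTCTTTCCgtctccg
Rps15a: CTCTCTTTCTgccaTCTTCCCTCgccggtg

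Rpl35a, called lower, had no such run in this window, and the other 4 had at least 1. A match is a description of these letters and not a bound site.

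The remaining ribosomal proteins and the machinery around them were described from gene lists. Rpsa, Fau and Rpl36al encode ribosomal proteins but have other symbols, and 0 of the 3 were called by limma (0 at an unadjusted p below 0.05). Rpsa, on the small subunit, had 36946, 39365 and 36281 normalized counts in NOD and 30108, 32822 and 38678 in B6. Of 10 elongation genes, Eef2k, the kinase that inhibits elongation factor 2, was called higher. It had 191, 207 and 165 normalized counts in NOD libraries, against 127, 109 and 116 in B6 libraries (log2 fold change 0.67, limma adjusted p = 0.0378), and these did not overlap. Of 33 initiation genes, Eif3j1, a loosely bound subunit of eIF3 that was named after its value was seen, was called lower. It had 565, 577 and 582 in NOD and 804, 765 and 854 in B6 (log2 fold change -0.49, limma adjusted p = 0.0167).

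Among the 41 ribosome assembly genes, 0 were called, with a median log2 fold change of 0.07 and 3 genes at an unadjusted p below 0.05 in limma. Of the 12 RNA polymerase I genes 0 were called (median 0.12, 1 at an unadjusted p below 0.05). Among the 19 genes that control terminal oligopyrimidine mRNAs and growth, 0 were called (median -0.04, 2 at an unadjusted p below 0.05). Of the 76 mitochondrial ribosomal protein genes tested, 2 were called higher (2.63%) and 1 lower (1.32%), with a median of 0.08. Mrpl35 had 390, 412 and 402 normalized counts in NOD, against 204, 249 and 280 in B6 (log2 fold change 0.73, limma adjusted p = 0.0108). Mrpl10 had 398, 425 and 386 in NOD, against 309, 235 and 289 in B6 (0.54, adjusted p = 0.0416). Mrps5 had 326, 240 and 255 in NOD, against 447, 387 and 407 in B6 (-0.60, adjusted p = 0.0312). In each of the 3 genes the strains did not overlap. Of the 93 pseudogenes tested that carry a member's name, 6 were called higher (6.45%) and 0 lower, with a median of 0.25. In limma, 10 of the 93 (10.8%) had an unadjusted p below 0.05. The 6 called higher were Rpl3-ps1, Rpl34-ps1, Rps2-ps6, Rps19-ps3, Rps19-ps6 and Rps24-ps3. For comparison with all these lists, 4.59% of all genes tested were called higher and 5.3% lower. An unadjusted limma p below 0.05 was found in 20.3% of all genes tested.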

How the data were processed

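The deposited table holds 6 library columns of scores, which are reads per gene over a size factor for each library, rounded by the authors, per the file headers. It also holds the authors' log2 fold change and error, the p-value (also adjusted), and their mean and test statistic as further scores, per the file headers; the authors' mean is not that of the 6 columns. The tools named are Trimmomatic, STAR and DESeq2 with mm10, per the submitters' processing notes. Total RNA (miRNeasy micro kit) was made into TruSeq Standard Total RNA libraries, per the labels' protocols. The sources used here name no counter, annotation or strand setting. Raw reads per library are not shown by the table, and 0 sample columns were left unused.

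Columns were matched to strain by name. Genes that reached 10 normalized counts in 3 libraries or more (in 2, on leaving a library out) were fitted on log2(value + 1) with limma 3.58.1 in R 4.3.3, with a trend, two-sided, and Benjamini-Hochberg adjustment over all genes. The step was tested on simulated data. The values were not raw counts, so the planned count test was not run. Annotation is GENCODE M21 on GRCm38. The principal coding sequence, in its shortest transcript, was used for lengths, and every 50-base stretch of it was looked up in all annotated transcripts. Copies were aligned with biopython 1.88. Promoters are from RefSeq; protein sequences were not used here. Members, lists and named genes were chosen with earlier results of these data known. The rule for named genes took called members at least 0.5 (log2) from the members' median, the 10 highest and 10 lowest fold changes, the 5 largest genes of each subunit, paralogs, members with called copies, and called genes of the lists; Rps7 and copies known by Gm numbers were chosen after their values were seen. Alternatives were 2 other pseudocounts, 2 filters, 3 scalings, fits with no trend and with robust moderation, leaving out each library, summing copies and correcting for GC content. Values of some genes are not reported here.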

Additional observations from a re-analysis of the deposited data

How the results depend on the processing

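Each setting was changed on its own, except that leaving out a library also lowered the filter to 2 libraries. The count of members called higher, 1 as reported, was 0 with a pseudocount of 0.5, with no filter, with at least 50 in 3 libraries, with libraries centred on the members' median and with no trend, and ran from 0 to 11 when a library was left out. The count called lower, 5 as reported, was 8 with that centring, 1 with no trend (Rpl29), 3 when copies were summed, 4 with no filter and 4 with at least 50 in 3 libraries (Rpl21 was lost both times), 6 with quantile normalization (Rps18 was gained), and ran from 3 to 10 when a library was left out; Rpl29, Rpl34 and Rpl35a were called in all 6 of those fits. The median log2 fold change of the members ran from 0.02 to 0.26 on leaving out a library, that of the large subunit from 0.02 to 0.28, and that of the small subunit from 0.01 to 0.23. Only the centring, which sets the members' level near 0 by construction, gave a median below 0 (-0.04). The difference in share of normalized counts, 0.19 percentage points as reported, ran from -0.25 to 0.50 when a library was left out; a scaling of whole libraries cannot change a share and was not run.

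Of the genes in the pathway lists, 3 were called higher and 2 lower as reported. Higher calls were 0 with the centring and from 0 to 3 when a library was left out; lower calls were 0 with no trend and from 0 to 4 when a library was left out. Among 38 named members, 645 values under other settings held 28 calls lost, 21 gained and 0 reversed. The cause was not tested.

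No paired analysis was possible because the columns carry numbers that match no replicate number of the labels. Values rounded after division hide raw depth, so no counting interval is given. With 3 libraries per strain, the 95% interval of an abundant member reached a median of 0.32 (log2) each way before any adjustment for the number of genes. Larger differences were not called in several members (Rpl39 at 0.47, for example).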
